A study of Mus musculus with 18 samples.

Results

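The immunoglobulin constant region genes were followed here in RNA from sorted mouse T cells after haematopoietic stem cell transplantation. The 9 genes were taken by symbol, with no threshold on a measured value: the heavy chain genes Ighm, Ighd, Ighg1, Ighg2b, Ighg2c, Ighg3 and Igha, and the light chain genes Igkc and Iglc1. They are 9 of the 46073 genes of the count table, and all 9 passed the filter on low counts that left 18447 genes for testing. Donor T cells lacked Wapl, the cohesin release factor, or were wild type (KO and WT), and the study set both genotypes side by side on day 7 after allogeneic or syngeneic transplantation.

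The allogeneic KO and allogeneic WT groups were T cells taken from CByJ.SJL(B6)-Ptprca/J recipients, a BALB/c background, given 8 Gy and 1000000 donor T cells. The syngeneic KO and syngeneic WT groups came from B6.SJL-Ptprca Pepcb/BoyJ recipients given 9.5 Gy and 8500000 donor T cells. All recipients also received 5000000 marrow cells depleted of T cells. Each group had 3 libraries, each made from 100 ng of total RNA of 2 to 4 pooled mice with ribosomal RNA depletion. Donors were C57BL/6 mice (CD45.2), and the protocol gives an age of 8 to 12 weeks and female sex for donors and recipients. The labels do not describe the Cre driver or the deleted part of Wapl. The 3 syngeneic KO libraries carry a syngeneic transplant label, although a second field gives them the BALB/c-background recipient strain, and they were treated as syngeneic. Recipient strain, irradiation and T cell number all differ between the transplant types and cannot be told apart in that comparison. Spleen cells were enriched for T cells and sorted as live CD3+ CD45.2+ cells, a gate for T cells that carry the donor CD45 form.

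An antibody joins 2 heavy chains to 2 light chains, and the constant region of the heavy chain sets its class: IgM, IgD, IgG, IgA or IgE. B cells first make IgM and IgD, and class switch recombination can later place a downstream constant gene behind the same variable region. Switching starts with transcription through the unrearranged downstream gene, and which gene is transcribed is set by helper signals: interleukin 4 favours IgG1 and IgE, interferon gamma favours IgG2c, and transforming growth factor beta favours IgG2b and IgA. Plasma cells carry immunoglobulin RNA in very large amounts. T cells do not normally make antibody, although transcripts of the mu constant region that lack a variable region are known from T cells.

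By GENCODE M21 on the build GRCm38, 7 members form a single row on the minus strand of chromosome 12. Ighm lies at chr12:113418558-113422730 and Ighd at chr12:113406604-113416324, followed downstream by Ighg3 (chr12:113356224-113361232), Ighg1 (chr12:113325240-113330523), Ighg2b (chr12:113302965-113307933), Ighg2c (chr12:113285325-113288932) and Igha (chr12:113254830-113260236). Igkc lies on the plus strand at chr6:70726435-70726966 and Iglc1 on the minus strand at chr16:19061618-19062071. Igkc overlaps a non-coding gene on its own strand (Gm30211) and Iglc1 an antisense gene (2010309G21Rik). Neither Igkc nor Iglc1 shared a 50-base stretch of exon sequence with a transcript of another gene on either strand. Whether the counting used strand, and how it treated reads in overlapping genes, is not given in the sources used here.

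The 4 IgG genes are the closest relatives among the members, and the results below turn on telling them apart. The first 90 bases of their CH1 exons, which encode the domain next to the variable region, are shown from the GENCODE M21 transcripts (GRCm38, 5′ to 3′ on the coding strand). Capitals mark the 29 positions that are not identical in all 4.
Ighg1: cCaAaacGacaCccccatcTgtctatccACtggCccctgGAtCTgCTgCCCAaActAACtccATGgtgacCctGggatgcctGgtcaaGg
Ighg2b: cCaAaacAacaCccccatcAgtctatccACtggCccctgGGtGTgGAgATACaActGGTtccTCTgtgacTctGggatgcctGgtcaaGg
Ighg2c: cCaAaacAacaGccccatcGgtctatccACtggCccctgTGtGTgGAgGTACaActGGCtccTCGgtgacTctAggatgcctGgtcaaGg
Ighg3: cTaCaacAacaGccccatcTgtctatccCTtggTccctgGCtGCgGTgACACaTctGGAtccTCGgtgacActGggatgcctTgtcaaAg

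Over the whole CH1 exon of 291 bases, identity between pairs of IgG genes ran between 78.4 and 88.3%. Over all exons, 0.4% of the 50-base stretches of Ighg1, 4.1% of Ighg2b, 5.5% of Ighg2c and 1.6% of Ighg3 also occurred in another IgG gene. No 50-base stretch of the other 5 members occurred in another member. How the authors' counting assigned reads from shared stretches is not stated, so the IgG counts are uncertain. A low count beside an abundant relative is the least certain, as for the 10 counts of Ighg1 beside 1326 of Ighg2b and 2328 of Ighg3 in syngeneic KO library 2. BALB/c mice carry Ighg2a in place of the Ighg2c of C57BL/6, and that gene was not analysed here.

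Library totals lay between 45965659 and 89007100 counts, and the 9 members took 0.0372 to 0.382% of them. All 13 T cell markers had counts in each library, and their summed level was 3691 to 6910.1 counts per 1000000 library counts (CPM, scaled by TMM). Syngeneic KO library 1 stood apart from the other libraries on the second principal component of all genes. Wapl itself, measured over the whole gene, was at 140.0 and 161 CPM in allogeneic KO and WT (log2 difference −0.20 ± 0.11, edgeR adjusted p = 0.963), and at 135 and 188 CPM in syngeneic KO and WT (−0.48 ± 0.11, edgeR adjusted p = 0.0368). The 4 Y-linked genes examined summed to 31.4 to 138 CPM in the KO libraries and 0.732 to 1.75 CPM in the WT libraries. Genotype therefore went together with a Y-linked difference in both transplant types, and the part of it in any KO with WT comparison was not tested. Summed red cell genes reached 2118 to 4819 CPM in syngeneic WT and 12.6 to 91.6 CPM in the other 9 libraries, and summed myeloid genes were 24.7 to 95.3 CPM in syngeneic KO and 174 to 697 CPM elsewhere.

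Igkc and Ighm were the most abundant members per length in these T cell libraries. Over the 12 libraries Igkc averaged 640.1 ± 528 CPM per kilobase of exon and Ighm 545 ± 319.7 (SD, n = 12). Iglc1 followed at 44.0 ± 33.5, Ighg2c at 22.6 ± 35.9, Ighg2b at 11.3 ± 14.3, Ighg1 at 6.53 ± 15.7, Igha at 4.75 ± 6.78, Ighg3 at 4.62 ± 4.82 and Ighd at 1.15 ± 0.403 CPM per kilobase. Ighm exceeded Iglc1 in every library. The other neighbours in this order differed by less than the larger of their standard deviations, and the order was not the same in every group. In the 6 syngeneic libraries Ighg1 lay at 0.00775 to 0.946 CPM per kilobase, below Ighd at 1.31 to 1.67, and in syngeneic KO the mean of Igha (11.9) exceeded that of Ighg2c (4.03). Among the heavy chain genes Ighm made up 75.0 to 99.0% of the CPM per kilobase, and Igkc made up 90.6 to 95.7% of the 2 light chain genes.

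**Figure D1:**
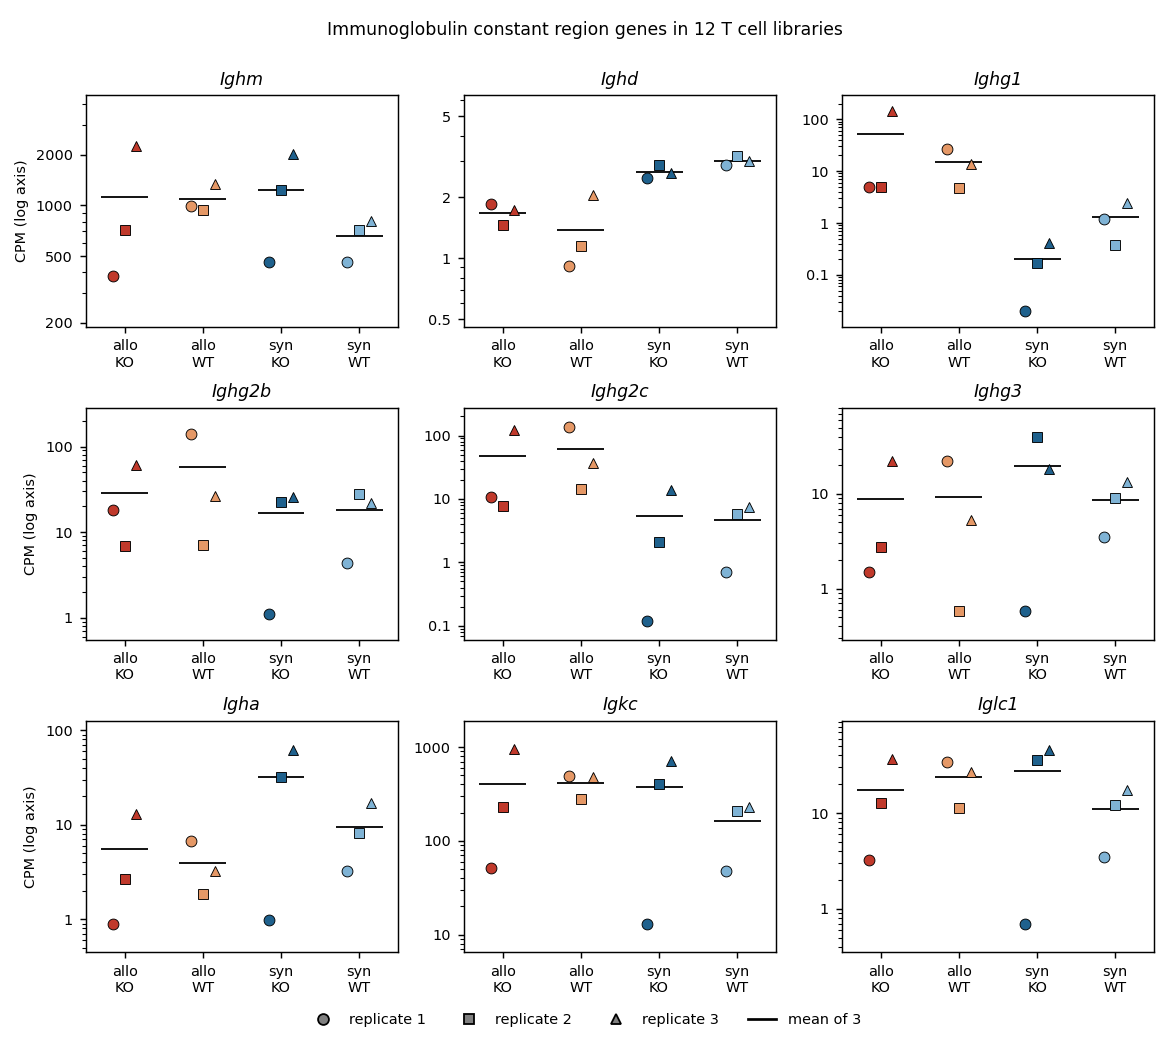
CPM (log axis) of each of the 9 members in 12 libraries, with symbols for replicate numbers and a bar at the mean of 3. Ighg1 is above 4 CPM in all 6 allogeneic libraries and below 3 CPM in all 6 syngeneic libraries, and Ighd is lower in the allogeneic libraries. The other members spread widely within the KO groups. Within allogeneic WT, Ighm (1.44-fold) and Igkc (1.75-fold) spread less than Ighd (2.22-fold).

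Ighm, the mu heavy chain of IgM, was high in every library and did not differ by the test in any comparison. It measured 379, 715 and 2265 CPM in allogeneic KO and 997, 934 and 1343 CPM in allogeneic WT. In syngeneic KO it measured 462, 1229 and 2033 CPM, and in syngeneic WT 459, 713 and 808 CPM. The KO libraries spread 5.97-fold (allogeneic) and 4.40-fold (syngeneic) between lowest and highest, the WT libraries 1.44-fold and 1.76-fold, and each KO group overlapped its WT group.

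Ighd, the delta heavy chain of IgD, was low but steady, and it was lower after allogeneic transplantation. It measured 1.85, 1.45 and 1.72 CPM in allogeneic KO, 0.919, 1.15 and 2.04 CPM in allogeneic WT, 2.49, 2.87 and 2.62 CPM in syngeneic KO, and 2.88, 3.17 and 3.01 CPM in syngeneic WT. All 6 allogeneic libraries were below all 6 syngeneic libraries. In WT cells Ighd fell by 1.14 ± 0.28 on the log2 scale (edgeR adjusted p = 0.00728), to a mean of 1.37 CPM in allogeneic WT against 3.02 CPM in syngeneic WT. In KO cells the difference was −0.67 ± 0.28 and did not pass the test (edgeR adjusted p = 0.0971), with means of 1.67 CPM in allogeneic KO and 2.66 CPM in syngeneic KO. In these bulk samples, fewer cells of a type and less RNA per cell cannot be told apart.

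Ighg1, the gamma heavy chain of IgG1, had the largest fitted difference between transplant types in KO cells, while in WT cells that of Ighg2c was larger. It measured 4.88, 4.92 and 144 CPM in allogeneic KO, 26.8, 4.67 and 13.7 CPM in allogeneic WT, 0.0201, 0.172 and 0.416 CPM in syngeneic KO, and 1.17, 0.376 and 2.45 CPM in syngeneic WT. All 6 allogeneic libraries were above all 6 syngeneic libraries. Ighg1 rose in allogeneic KO relative to syngeneic KO, with a fitted log2 difference of 7.97 ± 1.82 (edgeR adjusted p = 0.0106). The syngeneic KO values rest on 1, 10 and 21 counts. Without allogeneic KO library 3 the difference was 4.59 (edgeR adjusted p = 0.0148). The call was lost without syngeneic KO library 2 (edgeR adjusted p = 0.0523) and when these groups were fitted alone (edgeR adjusted p = 0.0556). Between allogeneic WT and syngeneic WT the log2 difference was 3.49 ± 1.41, with edgeR adjusted p = 0.0858. That difference was called with the replicate number as a block (edgeR adjusted p = 0.0280), in the fit of these groups alone (edgeR adjusted p = 0.0458) and by DESeq2 (adjusted p = 0.0342).

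Ighg2c, the gamma heavy chain of IgG2c, had high means in both allogeneic groups but did not pass the test. It measured 10.8, 7.77 and 124 CPM in allogeneic KO, 135, 14.2 and 36.8 CPM in allogeneic WT, 0.121, 2.13 and 13.8 CPM in syngeneic KO, and 0.716, 5.77 and 7.56 CPM in syngeneic WT. The WT groups did not overlap, and the KO groups did. The log2 difference was 3.73 ± 1.62 between allogeneic WT and syngeneic WT (edgeR adjusted p = 0.107; DESeq2 adjusted p = 0.0413) and 3.16 ± 1.58 between allogeneic KO and syngeneic KO (edgeR adjusted p = 0.178).

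Ighg2b, of IgG2b, and Ighg3, of IgG3, overlapped between groups in every comparison. Ighg2b measured 18.3, 6.95 and 61.7 CPM in allogeneic KO, 140.4, 7.00 and 26.4 CPM in allogeneic WT, 1.11, 22.8 and 26.0 CPM in syngeneic KO, and 4.40, 27.7 and 21.8 CPM in syngeneic WT. Ighg3 measured 1.48, 2.75 and 22.3 CPM in allogeneic KO, 22.2, 0.580 and 5.32 CPM in allogeneic WT, 0.583, 40.0 and 18.1 CPM in syngeneic KO, and 3.48, 9.12 and 13.4 CPM in syngeneic WT. For both genes the libraries of a group lay up to 20.1-fold (Ighg2b) and 38.3-fold (Ighg3) apart in allogeneic WT, and 23.6-fold and 68.6-fold apart in syngeneic KO.

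Igha, of the mucosal class IgA, had the most negative of the 9 differences between transplant types in KO cells, and it was not called. It measured 0.891, 2.70 and 13.1 CPM in allogeneic KO, 6.73, 1.87 and 3.26 CPM in allogeneic WT, 0.985, 31.7 and 62.6 CPM in syngeneic KO, and 3.25, 8.09 and 16.9 CPM in syngeneic WT. Its log2 difference was −2.49 ± 1.30 between allogeneic KO and syngeneic KO (edgeR adjusted p = 0.194) and −1.26 ± 1.27 between allogeneic WT and syngeneic WT (edgeR adjusted p = 0.480). Syngeneic KO libraries 2 and 3 were the highest of the 12.

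Igkc and Iglc1, the kappa and lambda 1 light chain constant genes, moved together from library to library. Igkc measured 51.2, 227 and 946 CPM in allogeneic KO, 491, 281 and 483 CPM in allogeneic WT, 12.9, 401 and 707 CPM in syngeneic KO, and 48.0, 208 and 232 CPM in syngeneic WT. Iglc1 measured 3.21, 12.7 and 36.5 CPM in allogeneic KO, 34.1, 11.2 and 26.7 CPM in allogeneic WT, 0.703, 35.7 and 45.7 CPM in syngeneic KO, and 3.50, 12.3 and 17.6 CPM in syngeneic WT. Allogeneic KO library 1, syngeneic KO library 1 and syngeneic WT library 1 were the lowest of their groups for both genes. Summed myeloid genes were also lowest of their groups in these libraries, at 174, 24.7 and 232 CPM. Summed T cell markers were the highest of their groups in syngeneic KO library 1 (6757 CPM) and syngeneic WT library 1 (5035 CPM). In allogeneic KO library 1 they were not (5391 CPM, against 6910.1 CPM in library 2). Allogeneic WT library 1 went the other way. It had the lowest myeloid sum (492 CPM) and highest T cell sum (5400.2 CPM) of its group, but the highest Igkc and Iglc1. The part of these differences in the light chain values was not tested.

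None of the 9 members was called between KO and WT after either transplant. Between syngeneic KO and syngeneic WT, 0 members were called by edgeR (adjusted p between 0.519 and 0.979), 0 had an unadjusted p under 0.05, and 0 were called by DESeq2, while 3.37% of all tested genes were called (0.743% higher and 2.63% lower in KO). The members' median log2 difference was 0.91, against 0.06 over all tested genes, and 6 of 9 differences were positive. Only Ighd did not overlap between these groups, where 23.3% of all genes did not overlap, 13.2% higher and 10.1% lower in KO. The replicate numbers were taken to pair the syngeneic libraries, which the labels do not state. With that block 0 members were called, the smallest edgeR adjusted p being 0.0537 for Ighg1 (log2 difference −2.71 ± 0.65). After allogeneic transplantation, 0 members were called between KO and WT by edgeR (adjusted p between 0.963 and 0.998), 0 had an unadjusted p under 0.05, 0 were called by DESeq2, and 0 were without overlap, beside 0.0542% of all genes called and 7.67% without overlap. Their median log2 difference was −0.03, against 0.03 over all genes. The test of whether the KO difference itself differed between transplant types also called 0 members by edgeR (adjusted p between 0.883 and 1.000), 0 by DESeq2 and 0 at an unadjusted p under 0.05, with 0.477% of all genes called.

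Between transplant types, 1 member passed the test in each genotype. Between allogeneic WT and syngeneic WT, Ighd was called lower and 0 members higher, beside 15.9% of all genes called lower and 16.4% called higher (32.3% in either direction). At an unadjusted p under 0.05 there were 3 of 9 members, beside 7962 of the 18447 tested genes. There 5 of 9 members did not overlap, namely Ighm, Ighg1, Ighg2c and Igkc higher and Ighd lower in allogeneic WT, beside 55.7% of all genes without overlap (28.2% higher and 27.5% lower), so the members' share was near the background. In KO cells, Ighg1 was called higher and 0 members lower, beside 13.2% of all genes called higher and 11.2% called lower (24.4% in either direction). There Ighg1 and Ighd were the members without overlap, beside 33.6% of all genes (17.0% higher and 16.6% lower). The median log2 difference of the members was 1.11 in WT, against −0.03 over all genes, and −0.15 in KO, against −0.02 over all genes. The WT and KO comparisons share no libraries. Ighg1 lay higher and Ighd lower in the allogeneic libraries of each, without overlap. The share of all genes without overlap in the same direction in both genotypes was not determined. The separation in both is therefore only a description of these genes.

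**Figure D2:**
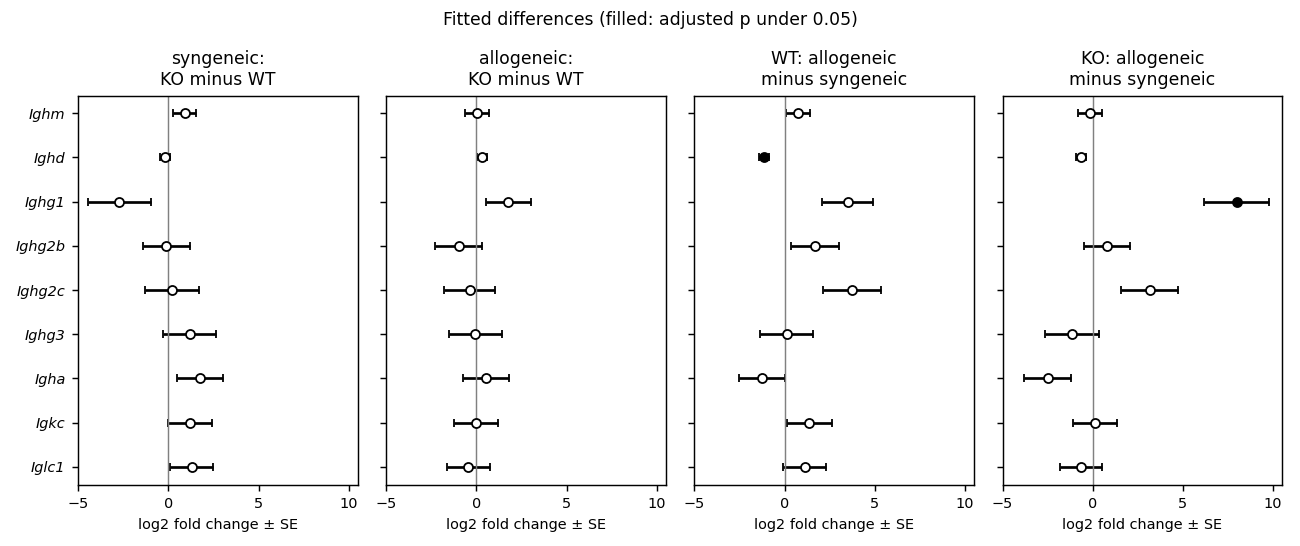
Fitted log2 differences of the 9 members (points) with standard errors (bars) in the 4 comparisons, KO over WT or allogeneic over syngeneic. Filled points passed an adjusted p of 0.05, namely Ighd in WT cells and Ighg1 in KO cells.

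The precision of these differences was low for every member except Ighd. Standard errors of the members reached 1.77 (syngeneic KO with WT), 1.47 (allogeneic KO with WT), 1.62 (allogeneic with syngeneic in WT) and 1.82 (allogeneic with syngeneic in KO), against a median of 0.24 over all tested genes. Igkc spread 18.5-fold within allogeneic KO, 1.75-fold within allogeneic WT, 54.8-fold within syngeneic KO and 4.83-fold within syngeneic WT. Ighd spread at most 2.22-fold within a group. Differences of the size seen for Igkc (log2 difference 1.20 ± 1.24 between syngeneic KO and syngeneic WT) were not detectable with 3 libraries a group at this spread.

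The members other than Ighd varied together among the libraries of a group. Taking each library's deviation of log2 CPM from its group mean, the 28 pairs of these 8 genes had Pearson r between 0.67 and 0.99, with a median of 0.85. The 8 pairs with Ighd had r between 0.00 and 0.18, with a median of 0.03. These are descriptions over 12 libraries that share their depth and scaling among genes.

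Outside the immunoglobulin genes, the deviations of Igkc were most like those of Jchain (r = 0.999 over 12 libraries), which links IgM and IgA into polymers. Jchain measured 4.29, 25.1 and 94.4 CPM in allogeneic KO, 46.4, 26.5 and 44.2 CPM in allogeneic WT, 1.21, 46.1 and 86.7 CPM in syngeneic KO, and 5.68, 27.0 and 27.2 CPM in syngeneic WT. Next came Mzb1, a chaperone of immunoglobulin assembly (r = 0.986; 0.0402 to 5.37 CPM), Gm9962 (0.984), Chst1, a sulfotransferase (0.982), 2700099C18Rik (0.977), Rapgef3, an exchange factor activated by cyclic AMP (0.976), Dok3, an adaptor of B cell receptor signalling (0.975), and Tnfrsf17, the receptor BCMA of plasma cells (0.972). All but Jchain had medians under 4 CPM, and Gm9962 and Tnfrsf17 rested on medians of 0.0847 and 0.0914 CPM. Most like Ighm were Dennd5b (r = 0.988; median 1.04 CPM), the calcium channel genes Cacna1e (0.976) and Cacna1h (0.975), Etl4 (0.973), Stra6l (0.971), Micu3, a regulator of mitochondrial calcium uptake (0.969), 1700047M11Rik (0.964) and Fcrla, a B cell protein of the Fc receptor-like family (0.963).

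**Figure D3:**
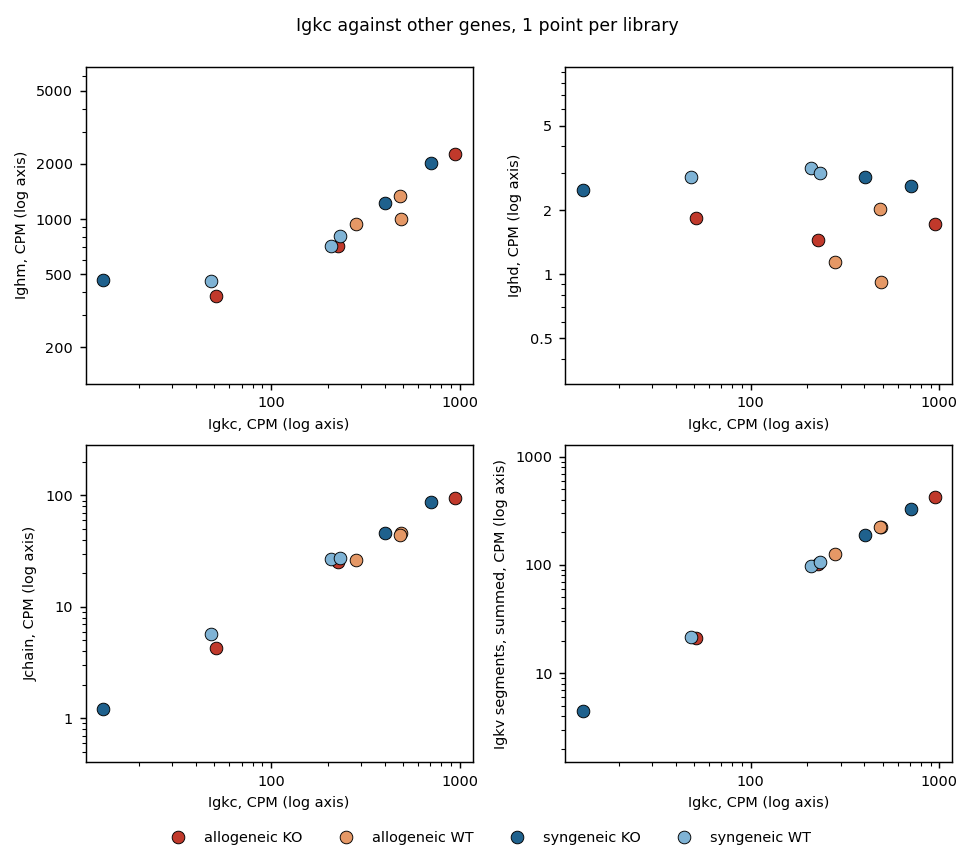
Ighm, Ighd, Jchain and the summed Igkv segments (vertical, CPM, log axes) against Igkc (horizontal, CPM, log axis), with 1 point per library coloured by group. Jchain and the Igkv segments follow Igkc over its whole range, Ighm levels off at 379 to 462 CPM in the 3 libraries with the least Igkc, and Ighd shows no common course.

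Variable segments, which the membership rule did not use, were counted together with the constant genes. Summed kappa variable (Igkv) segments were 0.349 to 0.470 times Igkc in all 12 libraries, while Igkc itself ranged 73.3-fold. Summed heavy variable (Ighv) segments were 0.244 to 0.359 times Igkc. Ighm did not keep this ratio. It was 6.10 to 12.9 times the Ighv sum in 9 libraries, and 21.6 times in allogeneic KO library 1, 137 times in syngeneic KO library 1 and 27.9 times in syngeneic WT library 1. In those 3 libraries Igkc was 51.2, 12.9 and 48.0 CPM, while Ighm was 379, 462 and 459 CPM.

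The variable segments were spread over many genes. Counts were found for 45 to 104 of 115 Ighv segments and 39 to 98 of 101 Igkv segments in a library. The most used Ighv segment took 4.56 to 10.3% of the Ighv counts, and the most used Igkv segment took 5.61 to 17.7% of the Igkv counts. In syngeneic KO library 1, which had the fewest Igkv counts, segment Igkv12-46 led with 12.5% of 224 counts (95% Wilson interval 8.79 to 17.5%). Among the lambda variable segments Iglv1 led in every library with 52.3 to 81.5%. These intervals cover counting error only.

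Within the switched classes, the make-up differed between transplant types even where the level did not pass the test. As shares of the CPM per kilobase of Ighg1, Ighg2b, Ighg2c, Ighg3 and Igha, Ighg2c made up 45.8, 47.0 and 50.4% in allogeneic KO, 57.9, 66.6 and 60.0% in allogeneic WT, 8.17, 4.23 and 20.4% in syngeneic KO, and 10.3, 20.2 and 21.6% in syngeneic WT. Igha made up 1.87, 8.12 and 2.65% in allogeneic KO, 1.43, 4.38 and 2.65% in allogeneic WT, 33.2, 31.3 and 46.0% in syngeneic KO, and 23.3, 14.1 and 23.9% in syngeneic WT. For both genes the 6 allogeneic and 6 syngeneic libraries did not overlap. The 5 shares of a library sum to 100%, so a larger share of a gene lowers those of the others. Exon length was 1326 bases for Ighg2c and 2512 to 2678 bases for the other switched genes, so length scaling raised the Ighg2c share. Without it, as shares of counts, Ighg2c made up 29.7 to 50.1% in the allogeneic libraries and at most 12.2% in the syngeneic libraries. Ighg2b was then larger in allogeneic KO library 1 (50.4%) and allogeneic WT library 1 (42.4%), and Ighg1 in allogeneic KO library 3 (39.3%). Ighg2c stayed largest in the other allogeneic libraries. The allogeneic recipients are of BALB/c background, which a second label field also gives for syngeneic KO. Whether reads of host Ighg2a entered the Ighg2c or Ighg2b counts was not tested.

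IgG1 took a larger and IgG3 a smaller share after allogeneic transplantation. Ighg1 took 14.0 ± 8.28% in the allogeneic and 2.34 ± 3.31% in the syngeneic libraries (SD, n = 6 each), with allogeneic values of 5.88 to 29.8% and syngeneic values of 0.175 to 8.59%. Ighg3 took 4.65 ± 2.43% in the allogeneic and 23.4 ± 9.97% in the syngeneic libraries, without overlap. Ighg2b took 23.2 ± 9.47% and 31.5 ± 10.4%, with overlap. The level of Ighg3 did not follow its share in WT cells, at 9.38 CPM in allogeneic WT and 8.67 CPM in syngeneic WT (log2 difference 0.11 ± 1.47, not called). In an exact permutation test of transplant labels within each genotype (two-sided, 400 relabellings), p was 0.00500 for Ighg2c, Ighg3 and Igha, the smallest that test can give, 0.0100 for Ighg1 and 0.200 for Ighg2b. Adjusted over these 5 comparisons the exact p was 0.00833 for Ighg2c, Ighg3 and Igha, 0.0125 for Ighg1 and 0.200 for Ighg2b. For Ighg2c, Ighg3 and Igha the exact p of 0.00500 follows from the lack of overlap and adds nothing to it. The shares sum to a fixed total, so the p values do not count as separate results. The test was chosen after the shares had been seen, and within 1 genotype 3 against 3 libraries cannot reach an exact p below 0.100. The shares rest on 140 counts in syngeneic KO library 1, where 6 counts of Ighg2c gave 4.29% of the counts (95% Wilson interval 1.98 to 9.03%), and on 837 to 25228 counts in the other libraries.

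**Figure D4:**
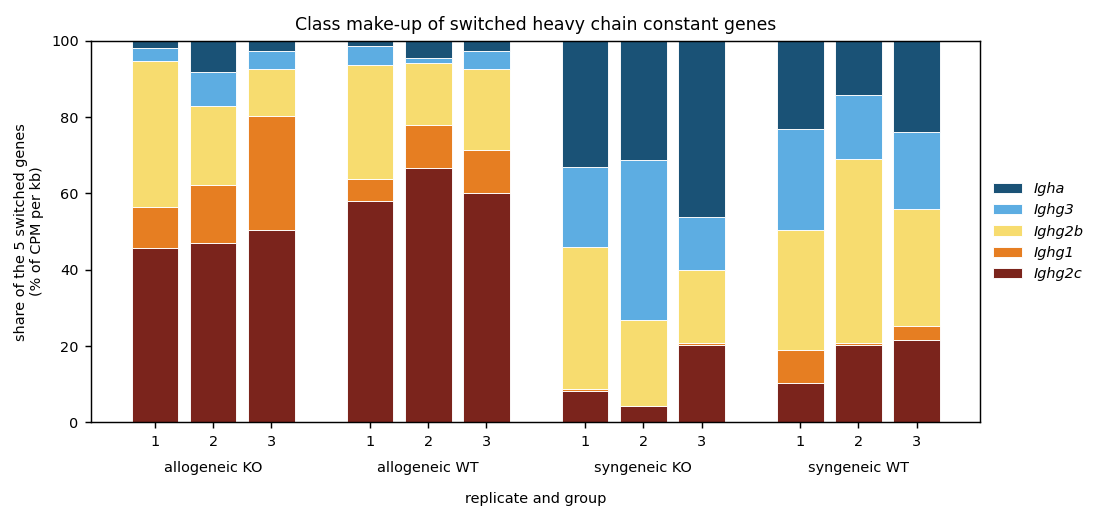
Shares (%) of the 5 switched heavy chain genes, from CPM per kilobase, in each of the 12 libraries (bars, each summing to 100%). Ighg2c fills 45.8 to 66.6% of the allogeneic bars and 4.23 to 21.6% of the syngeneic bars, and Igha 1.43 to 8.12% and 14.1 to 46.0%. Without length scaling Ighg2c takes 29.7 to 50.1% in the allogeneic libraries and at most 12.2% in the syngeneic libraries.

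The other immunoglobulin constant genes of the table were Ighe, Iglc2, Iglc3 and Iglc4, of which all but Iglc4 passed the filter. None of the 3 was called in any comparison by the fit over 12 libraries with all rows. Ighe, the epsilon heavy chain of IgE, had 9, 66 and 485 counts in allogeneic KO, 453, 4 and 172 counts in allogeneic WT, 0, 1 and 1 counts in syngeneic KO, and 0, 26 and 1 counts in syngeneic WT. Its KO groups did not overlap (edgeR adjusted p = 0.0544; called by DESeq2, when these groups were fitted alone, without ribosomal RNA rows and without allogeneic KO library 1), and its WT groups did (edgeR adjusted p = 0.0887; called without allogeneic WT library 2). Iglc2 and Iglc3 share 94.3% of their exon sequence, so their separate counts are uncertain.

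The 20 B cell markers covered a wide range of levels. Ms4a1, which encodes CD20, lay between 0.233 and 1.23 CPM, and Cd79a, a signalling chain of the B cell receptor, between 0.301 and 3.03 CPM in the 12 libraries. Over the 20 B cell markers the summed level was 80.3 to 97.6 CPM in the allogeneic and 137 to 166 CPM in the syngeneic libraries. Cd22, an inhibitory receptor, made up 15.3 to 67.1 CPM of that sum. Cd72, another inhibitory receptor, averaged 30.6, 26.1, 41.8 and 37.4 CPM in allogeneic KO, allogeneic WT, syngeneic KO and syngeneic WT, and Cd79b, the partner chain of Cd79a, 17.1, 10.2, 15.1 and 10.3 CPM. In syngeneic KO library 1 Cd22 (46.9 CPM) exceeded Igkc (12.9 CPM). The part of B cell genes in the members' differences was not tested.

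Among the 20 B cell markers, 10 fell and 1 rose in allogeneic WT relative to syngeneic WT, and 5 fell and 2 rose in allogeneic KO relative to syngeneic KO. Over all genes 15.9% were called lower and 16.4% higher in WT, and 11.2% lower and 13.2% higher in KO. Leaving out syngeneic WT library 3 or any allogeneic WT library left 5 or 6 lower and 1 higher in WT, and fitting the KO groups alone left 3 lower and 1 higher. Cd22 was at 20.8 CPM in allogeneic WT and 57.2 CPM in syngeneic WT (log2 difference −1.46 ± 0.16, edgeR adjusted p = 2.70e-05). Tnfrsf13c, the BAFF receptor, went the other way, at 5.12 CPM in allogeneic WT and 1.29 CPM in syngeneic WT (1.99 ± 0.22, edgeR adjusted p = 2.38e-05). Between syngeneic KO and syngeneic WT, Spib, a transcription factor of B and dendritic cells, fell (0.410 and 1.64 CPM, −1.99 ± 0.48, edgeR adjusted p = 0.0407) and 0 rose, beside 2.63% of all genes called lower and 0.743% called higher. There were 0 calls without syngeneic WT library 2 or 3, without syngeneic KO library 1 or 2 and with these groups fitted alone, and 4 lower without syngeneic WT library 1. None was called between allogeneic KO and allogeneic WT, where 2 had an unadjusted p under 0.05. The median log2 difference of the list was −0.92 in WT and −0.46 in KO between transplant types, against −0.03 and −0.02 over all genes.

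Of the 15 plasma cell genes, 6 rose and 0 fell in allogeneic WT relative to syngeneic WT, and 5 rose and 0 fell in allogeneic KO relative to syngeneic KO, beside 16.4% and 13.2% of all genes called higher. The called genes were Prdm1, Irf4, Xbp1, Txndc5, Sec11c and, in WT, Creld2. Jchain, Mzb1, the surface proteoglycan gene Sdc1 and Tnfrsf17 were not called in either genotype, and in KO their log2 differences were −0.11 ± 1.24, −0.32 ± 1.30, −0.71 ± 0.83 and −0.02 ± 1.03. Prdm1, which encodes the regulator Blimp-1 of plasma cells and effector T cells, was at 66.9 CPM in allogeneic WT and 9.49 CPM in syngeneic WT (log2 difference 2.82 ± 0.18, edgeR adjusted p = 3.29e-07). Xbp1, of the secretory stress response, was at 80.6 and 45.8 CPM (0.82 ± 0.10, edgeR adjusted p = 5.84e-05). Between syngeneic KO and syngeneic WT, Prdm1 (19.3 and 9.49 CPM, 1.03 ± 0.17, edgeR adjusted p = 0.00536) and Irf4 (50.6 and 29.8 CPM, 0.76 ± 0.12, edgeR adjusted p = 0.00300) rose. Prdm1 and Irf4 are also used by activated T cells. Prdm1 measured 77.1, 57.0 and 77.8 CPM in allogeneic KO, a smaller spread than that of Jchain and Igkc there. Which cells carried the RNA of Prdm1 and Irf4 was not tested.

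Of the 6 B cell precursor genes only Dntt and Rag1 passed the filter, and both fell with allogeneic transplantation in either genotype. Of all genes, 15.9% were called lower in WT and 11.2% in KO. The edgeR adjusted p was 8.65e-08 (Dntt) and 0.00796 (Rag1) in WT, and 7.83e-08 and 0.0172 in KO. Dntt, the terminal transferase that adds bases at variable region joints, was at 0.101 CPM in allogeneic WT and 4.59 CPM in syngeneic WT, and at 0.0806 CPM in allogeneic KO and 6.16 CPM in syngeneic KO. Rag1, of the recombinase that joins variable segments, had 0, 0 and 1 counts in allogeneic KO, 0 in each allogeneic WT library, 1, 24 and 58 counts in syngeneic KO, and 14, 17 and 57 counts in syngeneic WT. In KO cells Rag1 was not called without syngeneic KO library 3 or any allogeneic KO library, and with these groups fitted alone. Both genes also act in T cell precursors.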

How the data were processed

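Total RNA was sequenced from 12 libraries, 3 in each of 4 groups. The authors deposited expected counts per gene, and the submitters' processing notes list the build GRCm38. Tools on that list are Bowtie2 2.2.1, Cuffdiff 2.2.1, Cufflinks and TopHat2 2.0.13. Which of these gave the expected counts, and the annotation and strand setting, are not given in the sources used here. The counts were rounded. The labels list 18 samples. For 6 of them no column matched by name, and 6 columns that matched no sample were not used.

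A single edgeR 4.0.16 model (R 4.3.3) held the 12 libraries, with the 4 group means as its terms, TMM scaling, filterByExpr (minimum count 10) and robust quasi-likelihood F tests, two-sided. Calls used a threshold of 0.05 on p adjusted by Benjamini-Hochberg across the 18447 genes tested. Differences are log2, given ± standard error, and are KO over WT or allogeneic over syngeneic. The standard error was derived from the test, as the absolute difference divided by the square root of its F statistic. CPM use TMM-scaled library sizes, and CPM per kilobase use the summed exon length of GENCODE M21, which 45139 of the 46073 identifiers matched. The biological coefficient of variation was 0.249. The script was tested on simulated data. Alternatives were other scaling, no filter, ribosomal or immunoglobulin rows left out, a replicate block, 2 groups alone, each library left out, and DESeq2 1.42.0. The permutation test of shares and the fit without 4 ribosomal rows were added after the data were seen.

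The members and lists were chosen with earlier results of these data known. The rule named all members, up to 4 genes with the smallest p of each list and comparison, the 8 genes most like Igkc and Ighm, and Wapl. The text covers part of these, and some listed genes are not reported here. Ms4a1, Cd79a, Cd79b, Cd72, Sdc1, Cd4, Cd8a, Jchain, Xbp1, Il4, Il10, Il21, Il4ra, Ifng and Tgfb1 were also described, chosen after their values were seen where the rule did not name them. Wapl stands in the table as Wapal.

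Same-numbered libraries deviated together in the syngeneic groups (r between 0.170 and 0.545 on residuals of all genes), so their numbers were taken as pairs, which the labels do not state. Differently numbered syngeneic libraries had r between −0.501 and 0.363. The highest of these, KO library 3 with WT library 2, exceeded the same-numbered values of 0.170 and 0.335, so the pairing is uncertain. No other pair of groups had every r above 0.1. Pools are separate by the labels, and p values measure the spread between pools.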

Additional observations from a re-analysis of the deposited data

How the results depend on the processing

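Of 711 recomputed member differences, 660 kept their direction and side of the threshold, 2 lost and 7 gained a call, and 42 uncalled differences changed sign. The call of Ighd in WT cells held in every alternative (adjusted p up to 0.0442). Called genes between syngeneic KO and WT numbered 622, against 349 with these groups alone, 1287 with these groups alone and the replicate block, 1027 by DESeq2 and 260 to 742 leaving out single libraries. Between allogeneic KO and WT they numbered 10, against 6 (groups alone), 75 (DESeq2) and 3 to 15 (single libraries left out). Between allogeneic KO and syngeneic KO they numbered 4500, against 2645 (groups alone) and 2267 (with the replicate block), and for the difference of KO differences 88, against 296 (DESeq2) and 28 to 242. Called members between allogeneic WT and syngeneic WT numbered 1, against 2 with the replicate block over 12 libraries and 3 with these groups alone, with these groups and the block, and by DESeq2. Between allogeneic KO and syngeneic KO they numbered 1, against 0 with these groups alone and 0 to 1 leaving out single libraries. The replicate block changed no other member call. The Igkc share in syngeneic WT was 93.5% without length scaling and 92.5% with it. The cause of these changes was not tested.

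Signs that changed were all of uncalled differences. Between syngeneic KO and WT, Ighg2c was −0.53 (block over 12) and −0.68 (groups alone with block), and leaving out single libraries gave −2.01 to 0.74 for Ighg2c and −0.58 to 0.41 for Ighg2b. Between allogeneic KO and WT, the block over 12 gave −0.33 (Ighm) and −0.61 (Igha), groups alone with block gave −0.34 (Ighm) and 0.60 (Ighg3), and single libraries left out gave −1.00 to 0.45 (Ighm), −1.62 to 2.49 (Ighg1), −2.20 to 0.80 (Ighg2b), −2.74 to 0.91 (Ighg2c), −2.13 to 1.62 (Ighg3), −1.10 to 1.15 (Igha), −1.59 to 0.49 (Igkc) and −1.58 to 0.04 (Iglc1). Between allogeneic WT and syngeneic WT, Ighg3 was −0.96 (groups alone with block) and −1.57 to 0.66, and Ighg2b −0.10 to 2.21. Between allogeneic KO and syngeneic KO they ran −1.18 to 0.41 (Ighm), −0.40 to 1.31 (Ighg2b) and −1.42 to 0.98 (Igkc), and for the difference of KO differences −2.10 to 0.91 (Ighg2b), −2.93 to 1.63 (Ighg2c) and −3.31 to 0.44 (Ighg3). All 5 switched shares kept their direction and side of the threshold without length scaling and without any single library. For Ighg2c, Ighg3 and Igha, leaving out a library cannot create overlap, so that outcome was fixed in advance and adds nothing. The Ighg2c share was smaller without length scaling, and Ighg2c was then not the largest share in every allogeneic library.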

Other observations

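Of 18 tested genes of the machinery, 8 fell and 0 rose in allogeneic WT relative to syngeneic WT, and 4 fell and 0 rose in allogeneic KO relative to syngeneic KO, beside 15.9% and 11.2% of all genes called lower. Ung, which removes uracil from DNA, was at 22.3 CPM in allogeneic KO and 42.7 CPM in syngeneic KO (−0.94 ± 0.16, edgeR adjusted p = 9.01e-04). Apex2, a nuclease of base excision repair, was at 19.6 CPM in syngeneic KO and 42.4 CPM in syngeneic WT (−1.11 ± 0.16, edgeR adjusted p = 0.00201), and its KO difference was the 1 of the list called as differing between transplant types (1.22 ± 0.23, edgeR adjusted p = 0.0359), a call lost without any single library other than syngeneic WT library 1. The count of 4 was 2 without syngeneic KO library 2 or allogeneic KO library 2 and with the KO groups alone, a share near that of all genes. Apex2 was at 21.7 and 20.1 CPM in allogeneic KO and allogeneic WT, so syngeneic WT alone was high, as it was for the summed red cell genes (2118 to 4819 CPM, against 12.6 to 91.6 CPM in the other groups), and their part in this was not tested. DNA repair genes of this list serve every dividing cell.

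Of 13 tested genes for helper signals that steer switching, 8 rose and 2 fell in allogeneic WT relative to syngeneic WT, and 6 rose and 2 fell in allogeneic KO relative to syngeneic KO, beside 16.4% and 13.2% of all genes called higher. In WT cells Cd4, the marker of helper T cells, also rose (396 CPM in allogeneic WT and 187 CPM in syngeneic WT, edgeR adjusted p = 0.00361) and Cd8a, of cytotoxic T cells, fell (353 and 545 CPM, edgeR adjusted p = 0.0205). In KO cells neither was called (Cd4 302 and 222 CPM, Cd8a 458 and 644 CPM), and the part of this make-up in the signals was not tested. Icos, a costimulatory receptor of helper T cells, measured 172, 159 and 173 CPM in allogeneic KO, 184, 177 and 204 CPM in allogeneic WT, 43.0, 44.1 and 40.3 CPM in syngeneic KO, and 33.9, 36.7 and 30.6 CPM in syngeneic WT. Il13 was at 7.85 CPM in allogeneic WT and 0.137 CPM in syngeneic WT (log2 difference 5.81 ± 0.47, edgeR adjusted p = 1.65e-06). Interleukin 4 RNA (Il4) was at 2.63, 2.88 and 0.853 CPM in allogeneic KO, 3.80, 2.93 and 2.62 CPM in allogeneic WT, 0.141, 0.189 and 0.278 CPM in syngeneic KO, and 0.0311, 0.120 and 0.136 CPM in syngeneic WT. Ifng, of interferon gamma, averaged 38.9 CPM in allogeneic WT and 9.58 CPM in syngeneic WT (edgeR adjusted p = 0.00333). In KO it averaged 48.5 and 15.4 CPM (edgeR adjusted p = 0.0122). Tgfb1, of transforming growth factor beta, was not called in either genotype. The part of these signals in the class shares was not tested. Il21 (1.73 ± 0.38, edgeR adjusted p = 0.0243) and Il10 (2.10 ± 0.49, edgeR adjusted p = 0.0352) rose in syngeneic KO relative to syngeneic WT, and both calls were lost without syngeneic WT library 1 or 2, without syngeneic KO library 1 or 2 and with these groups alone. Il10 was also not called without syngeneic WT library 3, nor Il21 with the replicate block. Il4ra, the interleukin 4 receptor, was at 92.9 CPM in allogeneic KO and 269 CPM in syngeneic KO (−1.54 ± 0.15, edgeR adjusted p = 1.26e-05).

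Fc receptors bind the antibody constant regions. Of 8 tested genes, 1 fell and 0 rose in allogeneic WT relative to syngeneic WT, beside 15.9% and 16.4% of all genes. In allogeneic KO relative to syngeneic KO, 1 fell and 2 rose, beside 11.2% and 13.2%. Between syngeneic KO and syngeneic WT, 1 fell, beside 2.63%. Fcgrt, the neonatal receptor that recycles IgG, fell after allogeneic transplantation in WT cells (12.1 CPM in allogeneic WT and 31.8 CPM in syngeneic WT, edgeR adjusted p = 9.94e-04). It also fell in KO cells (15.6 and 44.0 CPM, edgeR adjusted p = 7.97e-04). Fcgr4, a receptor of IgG2 classes on myeloid cells, was at 0.0796 CPM in syngeneic KO and 1.31 CPM in syngeneic WT (log2 difference −4.05 ± 0.80, edgeR adjusted p = 0.0153), a call lost without syngeneic WT library 2 or 3, without syngeneic KO library 1 and with these groups alone. Fcgr4 and Fcer1g, the signalling chain of Fc receptors, rose in allogeneic KO relative to syngeneic KO (Fcer1g 22.9 and 1.94 CPM, edgeR adjusted p = 0.0154). Summed myeloid genes were also lowest in syngeneic KO, at 24.7 to 95.3 CPM, and their part in this was not tested.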
